A study of Cavia porcellus with 238 samples.

Results

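PTH, GCM2, CASR and CALCA are 4 of the 16009 genes in a table of raw RNA-seq counts of guinea pig (GP) tissues, and each is present as 1 row. They were chosen by symbol, with earlier results of these data known, as a measure of which thyroid (Thy) libraries hold RNA of parathyroid glands or of C cells. Their levels in the thyroid libraries are therefore given as a description, without a test of what they were chosen for. Levels are given as CPM, the count of a gene divided by the total count of its library and scaled to a common size.

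Parathyroid hormone, encoded by PTH, raises blood calcium and is made by the chief cells of the parathyroid glands, small glands that lie beside or inside the thyroid. GCM2 is a transcription factor that parathyroid development requires. CASR encodes the calcium-sensing receptor, through which parathyroid cells and C cells measure calcium in the blood, and which is also present in kidney. CALCA encodes calcitonin, the hormone of the thyroid C cells, and by alternative splicing the neuropeptide CGRP. Thyroid follicular cells, which make thyroglobulin (TG), surround the C cells in this gland.

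The animals were 24 Dunkin Hartley GPs with no genetic change and no drug treatment. Female breeders (BF) and male breeders (BM) had been kept in breeding pairs. Female non-breeders (NF) and male non-breeders (NM) had been kept in same-sex pairs, with 6 animals per group. Breeding males were removed from the pairs around the birth of the second litter. Breeding females were sampled after the lactation of that litter, so BF and BM differ in more than sex. The 237 libraries used cover 11 tissues, of which ovary (Ova) and testis (Tes) come from 1 sex each. Animals are named here by group and number. All were 0.95 to 0.97 years old, except NM 18, NM 19, BM 20 and BM 22, which were 0.74 years old. Thyroids were bulk tissue, and neither parathyroid glands nor C cells were dissected or sorted. In such samples, fewer cells of a type and less RNA per cell cannot be told apart.

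Of the thyroid libraries, 22 were used, 5 of BF, 6 of NF, 6 of BM and 5 of NM, with 11902191 to 19620753 counts each. The thyroid of BF 12 was not analysed here. The thyroid library of NM 19 was left out, as the study did. It held 37.5 CPM of TG, against 34805 to 120639 CPM in the 22 others, and a summed 1892 CPM of 10 T cell genes and 4391 CPM of 9 B cell genes, against at most 54.2 and 17.7 CPM in the others. PTH and GCM2 had 0 counts in it, CASR 1 count and CALCA 49 counts. Reads were 51 nt long, except for 50 nt in the thyroids of BF 01, BF 02, BF 05 and NF 03. Each animal gave at most 1 library per tissue.

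PTH was either abundant or close to absent. It had 26745 CPM in NF 03, 18235 CPM in BF 05, 9794 CPM in BM 21, 6647 CPM in NM 18, 5904 CPM in BM 24 and 1397 CPM in NF 13. The next highest library, NF 11, had 16.3 CPM. No library lay between 16.3 and 1397 CPM, and a line drawn at 1000 CPM after the values were seen separates 6 libraries from 16. All 4 groups had a library above it, 1 of 5 BF, 2 of 6 NF, 2 of 6 BM and 1 of 5 NM. In NF 03, PTH alone took 385229 counts. In the 16 libraries below the line, counts were 0 in NF 09, NM 29 and NM 30 and from 5 to 295 in the other 13. A count of 0 allows up to 3 counts, so PTH was not detectable in these at this depth rather than shown to be absent.

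GCM2 was present in the same 6 libraries. It had 417 CPM in BF 05, 251 CPM in NF 03, 90.8 CPM in BM 21, 82.6 CPM in NM 18, 70.3 CPM in BM 24 and 35.8 CPM in NF 13. In the 16 others it had 0 to 5 counts (at most 0.276 CPM), with 0 counts in 9 of them. The order of the 6 libraries by GCM2 was not that by PTH, since BF 05 and NF 03 changed places. The ratio of PTH to GCM2 ranged from 39.1 to 108 in the 6 libraries.

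CASR was also highest in these 6 libraries, but it was present in all 22. It had 386 CPM in NF 03, 219 CPM in BM 21, 168 CPM in BM 24, 145 CPM in BF 05, 135 CPM in NM 18 and 83.8 CPM in NF 13. In the 16 others it ranged from 0.247 CPM (4 counts) in BM 20 to 59.2 CPM in NM 30. None of the 16 reached the 6, but the gap between 59.2 and 83.8 CPM was narrow compared with that of PTH.

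CALCA was abundant in the thyroids with and without PTH. In the 5 BF libraries it had 27993, 10383, 8590, 6656 and 2716 CPM. In NF it ranged from 3188 to 24560 CPM, with a median of 13282 CPM. In BM it ranged from 118 to 19819 CPM, with a median of 9364 CPM. In the 5 NM libraries it had 17698, 16615, 7135, 2939 and 2120 CPM. The groups overlapped throughout. The 6 libraries rich in PTH held 9192 to 27993 CPM of CALCA and the 16 others 118 to 24560 CPM, and these ranges overlapped. BM 20 stood apart at 118 CPM, which was 17.96-fold below the next lowest library, NM 29. The same library had the lowest CASR and, with 120639 CPM, the highest TG.

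**Figure D1:**
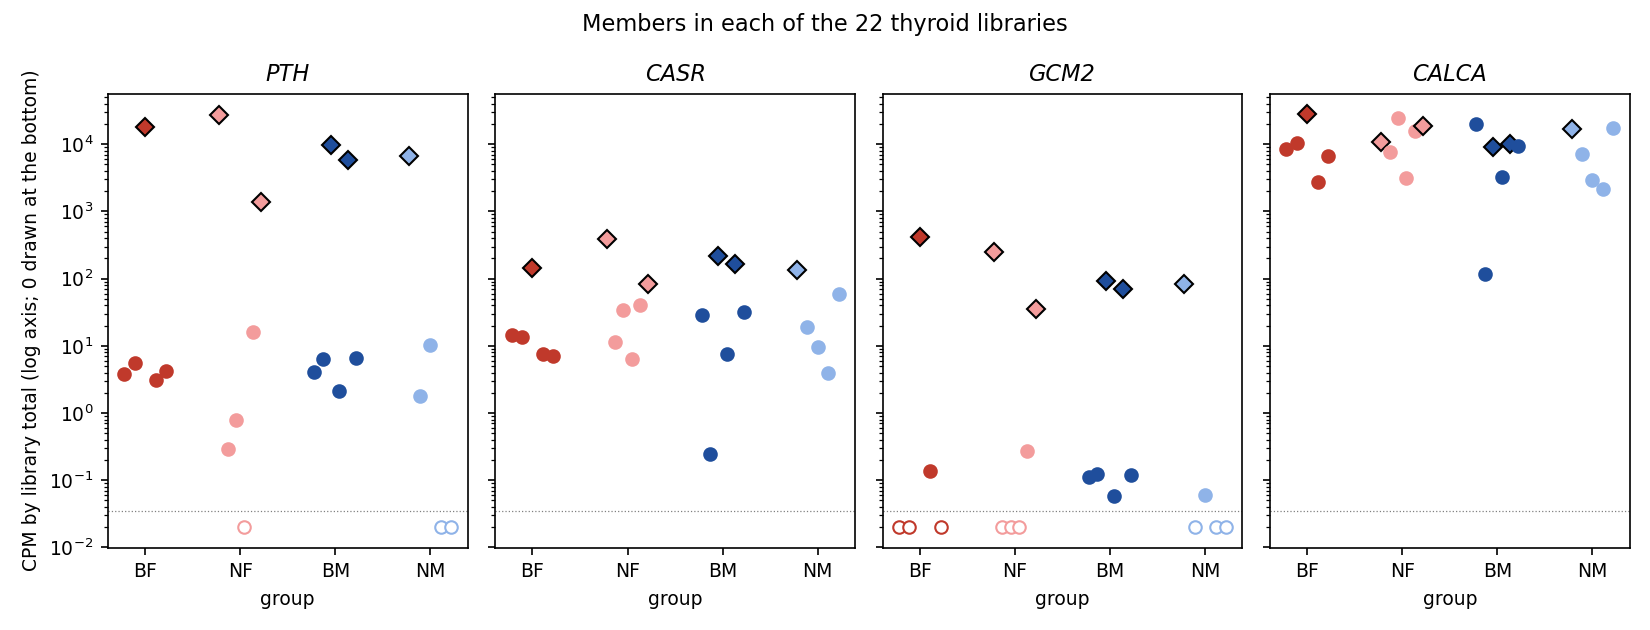
PTH, CASR, GCM2 and CALCA in each of the 22 thyroid libraries, as CPM by library total on a log axis, by group (BF and NF, female breeders and non-breeders; BM and NM, male breeders and non-breeders). Each point is 1 library, diamonds with a black edge are the 6 libraries above 1000 CPM of PTH, and open points below the dotted line are at 0 counts. PTH and GCM2 leave a wide gap between the diamonds and the other points, and the lowest CALCA point is BM 20 with 118 CPM.

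CALCA counts combine the calcitonin and the CGRP transcript. Whether CALCB, a related gene that encodes another CGRP, shares reads with CALCA was not tested. The authors discarded reads that map to several places, so the CALCA level is uncertain by any reads lost. CALCB had 1 to 75 counts (0.0617 to 6.08 CPM) in the 22 thyroid libraries.

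The labels parathyroid and C cell were compared with lists of further genes of each cell type. Of the 12 parathyroid genes on the list, 9 were not members. Among these, GATA3, EYA1 and PVALB had all of the 6 PTH-rich libraries above all 16 others. GATA3, a transcription factor of parathyroid development, had 7.80 to 87.1 CPM in the 6 and 0.466 to 2.64 CPM in the 16. EYA1, a developmental cofactor of the pharyngeal pouches, had 3.47 to 32.8 CPM, against 0 to 1.53 CPM. PVALB, which encodes the calcium-binding protein parvalbumin, had 5.24 to 80.4 CPM, against 0 to 1.01 CPM. TBX1, VDR (the vitamin D receptor), CHGA (chromogranin A, a secretory granule protein of both cell types) and KL (Klotho, the co-receptor of FGF23) overlapped between the 2 sets of libraries. KL had 1.10 to 3.62 CPM in the 6 and 0.308 to 2.34 CPM in the 16. Over all 12787 genes with a mean of at least 1 CPM in Thy, 80 (0.626%) had these 6 libraries on top.

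Of the 18 listed C cell genes with a mean of at least 1 CPM, 0 had the 6 PTH-rich libraries on top. Over all genes the share was 0.626%, so this count does not set C cell genes apart. Of the same 18 genes, 16 were lowest in BM 20, CALCA among them. Over all 12787 genes, 1509 (11.8%) were lowest in BM 20. SST, which encodes somatostatin, had 44.7 CPM in BM 20 and at least 585 CPM in the 21 others. GFRA4, the persephin co-receptor that C cells carry together with RET, had 2.10 CPM in BM 20 and at least 34.0 CPM in the others. PCSK1, a prohormone convertase, had 2.59 CPM in BM 20 and at least 62.7 CPM in the others. CHGA, which is on both lists, had 5460 to 20975 CPM in the 6 PTH-rich libraries and 36.8 to 7860 CPM in the 16 others. The sum of all 20 C cell genes was 19826 to 46809 CPM in the 6 and 252 to 41563 CPM in the 16. Its median over all thyroid libraries used was 18013 CPM, below each of the 6. RET and SYP were the exceptions to the low levels of BM 20, with 28.6 and 5.73 CPM in BM 20 and values as low as 17.0 and 3.86 CPM elsewhere.

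**Figure D2:**
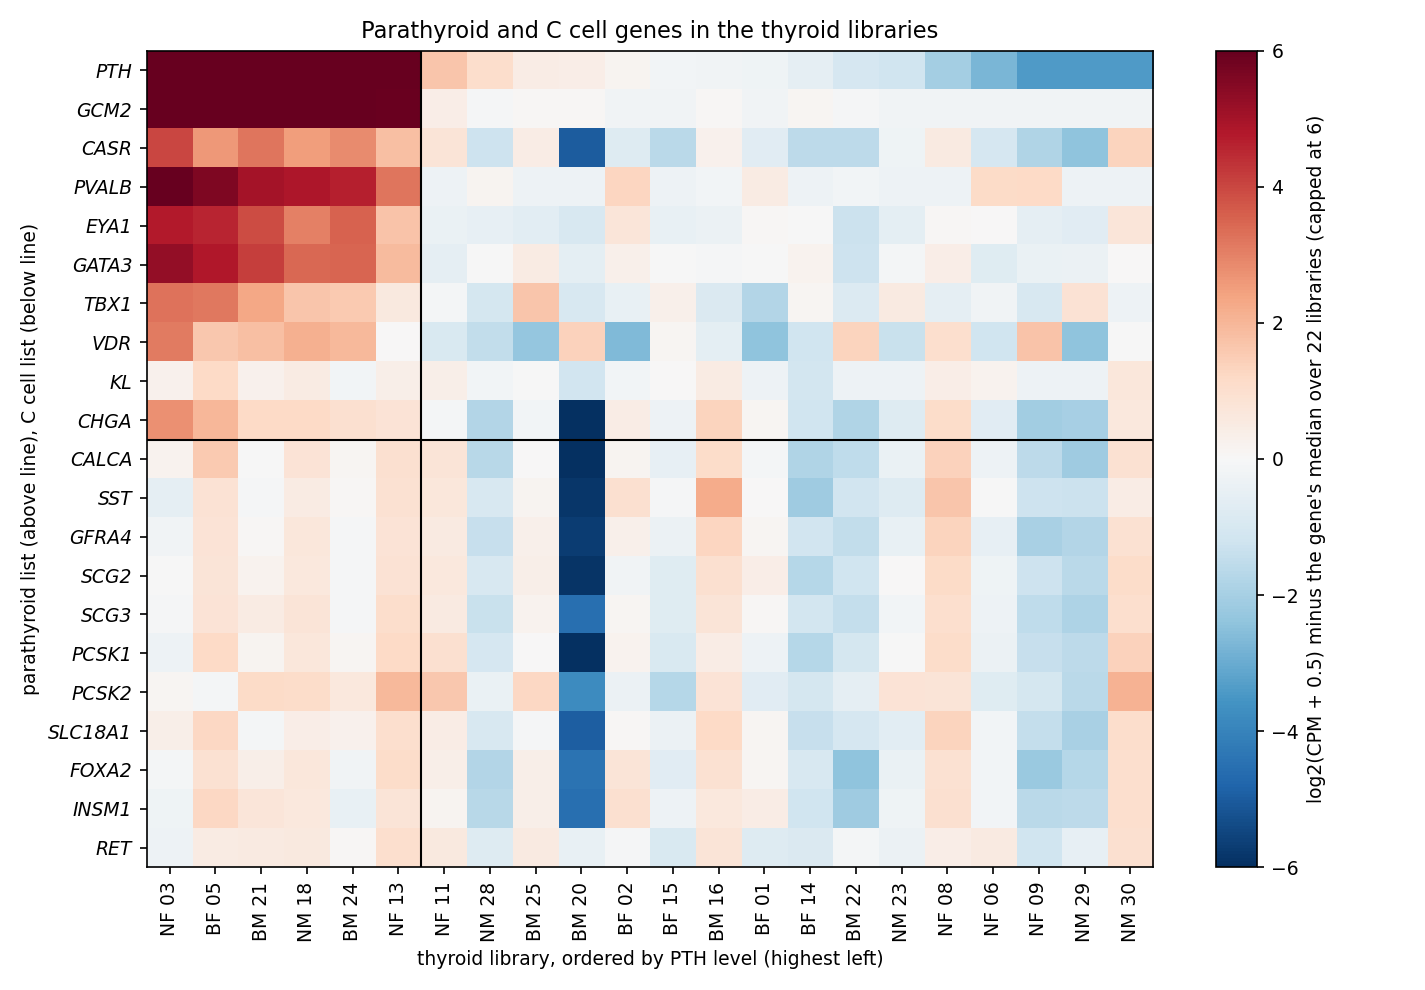
Parathyroid (above the horizontal line) and C cell genes (below it) in the 22 thyroid libraries, ordered from the highest PTH level on the left, with the 6 libraries above 1000 CPM left of the vertical line. Colours give log2(CPM + 0.5) minus the median of the gene over the 22 libraries, capped at 6. PTH, GCM2, PVALB, EYA1 and GATA3 are red in the same 6 columns, and BM 20 is blue for 10 of the 11 genes below the line, except for RET, which differs little.

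The levels of other cell types did not separate the 6 libraries. Summed over 15 follicular cell genes, they held 49457 to 86846 CPM, against 39681 to 129616 CPM in the 16 others. The sums of 10 T cell genes were 19.98 to 38.7 and 13.8 to 54.2 CPM, of 8 thymus genes 12.2 to 17.996 and 10.8 to 20.6 CPM, of 9 B cell genes 5.35 to 10.0 and 5.13 to 17.7 CPM, and of 12 skeletal muscle genes 20.9 to 74.9 and 18.2 to 83.4 CPM. For 10 adipocyte genes the sums were 619 to 2136 and 471 to 5024 CPM, and for 10 cartilage and airway genes 37.4 to 65.8 and 39.9 to 169 CPM. All of these ranges overlap. The part of such tissues in the levels of the 4 genes was not tested.

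Across the 22 thyroid libraries, levels of PTH and GCM2 on the log2(CPM + 0.5) scale had a Pearson r of 0.97 (Spearman rho 0.88). Because PTH falls into separate clusters, the value was also computed within them, and was 0.67 in the 16 libraries below 1000 CPM, where GCM2 is near 0, and 0.90 in the 6 above. Without the 2 libraries farthest from the median of PTH, r within these clusters was 0.64 and 0.95. CASR and CALCA had r = 0.94 (rho 0.90) in the 16 libraries and 0.89 without BM 20. In the 6 PTH-rich libraries, r of the same pair was -0.60. PTH and CALCA had r = 0.33 (rho 0.36) over the 22 libraries, -0.08 in the 16 and -0.11 in the 6. Without the 2 libraries farthest from the median of PTH, the value in the 6 turned to 0.68. The libraries share processing and depth, and the points of the 6 are few, so these values only describe how the levels lie.

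The ratio of CASR to CALCA shows the same pattern within each library. CASR stood at 4.54 to 35.7 per 1000 CALCA in the 6 PTH-rich libraries and at 1.07 to 3.39 per 1000 in the 16 others. BM 20, with the lowest level of both genes, lay inside the range of the 16.

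The genes most like each member over the 22 thyroid libraries, by Pearson r, overlapped for PTH and GCM2, which shared RHCG, MMP13, CILP2 and SPINK5. For PTH they were RHCG, an ammonia transporter (r = 0.98, rho 0.96), GCM2 (0.97, rho 0.88), MMP13, a collagenase (0.97, rho 0.82), CILP2 (0.96, rho 0.79) and SPINK5, a protease inhibitor (0.96, rho 0.79). For GCM2 they were RHCG (0.99, rho 0.92), MMP13 (0.99, rho 0.90), CILP2 (0.99, rho 0.79), SPINK5 (0.99, rho 0.76) and PLK5 (0.99, rho 0.58). These values rest on the 2 clusters. Within the 16 libraries below 1000 CPM of PTH, r with PTH was 0.82 for RHCG, 0.44 for MMP13, 0.34 for CILP2 and 0.01 for SPINK5. With GCM2 it was 0.83 for RHCG, 0.55 for MMP13, 0.47 for CILP2, 0.06 for SPINK5 and -0.17 for PLK5. Each of these 5 genes had a median of at most 0.305 CPM, below the mean of at least 1 CPM asked of the genes compared. RHCG reached 926 CPM, with a median of 0.305 CPM. For CALCA the genes were SCG5, which encodes a chaperone of prohormone convertase 2 (r = 0.99, rho 0.95), SLC18A1, a vesicular monoamine transporter (0.99, rho 0.98), SLC38A11 (0.99, rho 0.96), GFRA4 (0.99, rho 0.94) and SCG3, a secretogranin (0.98, rho 0.94). Without the 2 libraries farthest from the median of CALCA, these r values were 0.96 to 0.97. For CASR they were SERTM1 (0.97, rho 0.98), PAX9, a transcription factor of the pharyngeal pouches (0.96, rho 0.96), PRRT3 (0.95, rho 0.91), SPTB, an erythroid spectrin (0.94, rho 0.95), and KCNA1, a potassium channel (0.93, rho 0.91). Of the 5 genes like CASR, none was among the 5 like PTH, GCM2 or CALCA.

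The study compared breeders with non-breeders in females (GP-F-BvN) and males (GP-M-BvN), and females with males in non-breeders (GP-N-FvM) and breeders (GP-B-FvM). For thyroid, the 4 genes gave 16 such tests in a fit over all 13520 genes that passed a filter on low counts, and genes with a false discovery rate (FDR) below 0.01 were called. With edgeR, 0 of the 16 were called and 0 had an unadjusted p below 0.05, and DESeq2 gave the same counts. The smallest FDR was 0.501 with edgeR. Of all genes tested, edgeR called 0% in GP-F-BvN, GP-M-BvN and GP-N-FvM each, and 11.3% in GP-B-FvM. DESeq2 called 6.6% in GP-F-BvN, 0% in GP-M-BvN, 0.0254% in GP-N-FvM and 17.5% in GP-B-FvM. All 4 genes passed the filter.

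The intervals were wide. PTH had a log2 fold change of -0.45 (SE 2.92) in GP-F-BvN, with a 95% interval from -6.18 to 5.27, and of 0.93 (SE 2.96) in GP-M-BvN, with an interval from -4.86 to 6.72. GCM2 had 0.73 (SE 2.22) and 0.67 (SE 2.28) in these comparisons. CASR had -1.36 (SE 1.24) in GP-F-BvN and 0.74 (SE 1.22) in GP-M-BvN, and the difference between the sexes, an interaction, was -2.10 (SE 1.74, edgeR FDR 0.555). CALCA, with the narrowest intervals of the 4, had -0.23 (SE 0.78) in GP-F-BvN, with an interval from -1.76 to 1.30, and -0.07 (SE 0.78) in GP-M-BvN, with an interval from -1.59 to 1.46. In GP-N-FvM, fold changes were 1.81 (SE 3.04) for PTH, 1.05 (SE 1.22) for CASR, 1.51 (SE 2.33) for GCM2 and 0.52 (SE 0.79) for CALCA. In GP-B-FvM they were 0.42 (SE 2.90), -1.05 (SE 1.23), 1.57 (SE 2.24) and 0.36 (SE 0.78) for the same genes. The signs of all 4 values of PTH and of GCM2, of 3 of CALCA and of 2 of CASR change when some single library is left out, and without the 50 nt library of BF 05 and the 3 others of this length, PTH had -9.42 in GP-B-FvM (edgeR FDR 0.299, with 0.115 to 0.981 over all alternatives). With so few libraries on the high side, these data exclude neither a large nor a small difference in PTH between groups.

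The pathway around the 4 genes was described by fixed lists, tested in the same thyroid fit. Of 16 ligands and receptors of PTH, calcitonin and CGRP, 13 were tested and 0 were called in any of the 4 comparisons with edgeR, with 8 values at an unadjusted p below 0.05 (DESeq2 0 and 8). Over all genes and the 4 comparisons, edgeR put 18.9% of values below 0.05 and DESeq2 18.7%, and the counts of this kind for each thyroid list are to be read against these shares. List medians lay between 0.04 and 0.18 on the log2 scale, against medians over all genes of 0.01 to 0.02. Of the parathyroid list 12 of 12 genes were tested and 0 called by edgeR or DESeq2, with 0 at an unadjusted p below 0.05. Of the C cell list 19 of 20 were tested and 0 called by either tool, with 3 at an unadjusted p below 0.05. Of 10 genes of the vitamin D and FGF23 axis 7 were tested and 0 called, with 1 at an unadjusted p below 0.05 (DESeq2 0 and 1). Of 19 renal calcium and phosphate genes 6 passed the filter in thyroid, 0 of which were called, with 4 values at an unadjusted p below 0.05 (DESeq2 0 and 9).

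Among 7 tested genes of calcium sensing and signalling, edgeR called 2 as lower in BF than in BM thyroids and none in another comparison. DESeq2 called the same 2, GNAQ and GNA11, and ARRB1, a beta-arrestin (-0.48, SE 0.15, FDR 0.00651), in GP-B-FvM. DESeq2 also called GNAQ (-1.51, SE 0.36, FDR 0.00119) and GNA11 (-0.74, SE 0.19, FDR 0.00327) as lower in BF than in NF, where DESeq2 called 6.6% of all genes and edgeR 0%. GNAQ, a G protein subunit through which the calcium-sensing receptor signals, had 4.08, 3.95, 4.77, 6.19 and 2.51 CPM in BF and 4.46 to 19.9 CPM in BM (median 15.9). Its log2 fold change was -1.73 (SE 0.37, edgeR FDR 0.00305). GNA11, a related subunit, had 5.80, 5.55, 5.09, 11.8 and 6.28 CPM in BF and 11.4 to 14.3 CPM in BM (median 12.96), a log2 fold change of -0.87 (SE 0.19, edgeR FDR 0.00354). The groups overlap for both genes. The 11.3% of all genes that edgeR called in this comparison is the share to read these 2 of 7 against, and the list median was -0.47 beside 0.02 over all genes. NF thyroids had 5.32 to 22.8 CPM of GNAQ and 9.91 to 14.2 CPM of GNA11. Of the 5 BF libraries 3 are of 50 nt, as is 1 of the 6 NF libraries and none of the BM libraries. Without the 50 nt libraries, GNAQ had -1.68 (edgeR FDR 0.0793) and GNA11 -0.47 (edgeR FDR 0.184), and neither was called. The calls were also lost without the males of 0.74 years (0.0232 and 0.0257), without BF 02 (0.012 and 0.0149) or without BF 15 (0.0126 and 0.0128), and that of GNA11 without BF 01 (0.0103), with the library of NM 19 (0.0117) or in a fit of BF and BM alone (0.0193). In these fits the log2 fold changes were -1.71 to -1.46 for GNAQ and -0.89 to -0.80 for GNA11. Over all alternatives, FDRs ran from 3.8e-05 to 0.0793 for GNAQ and from 5.78e-05 to 0.184 for GNA11. In the same comparison, the follicular cell genes DUOX2, DUOXA2, NKX2-1 and SLC5A5 were called as higher in BF, with log2 fold changes of 0.73 (SE 0.19), 0.93 (SE 0.16), 0.69 (SE 0.14) and 2.15 (SE 0.50), as were NEB and TNNC2 of the skeletal muscle list (1.62, SE 0.42, and 1.87, SE 0.48) and COL2A1 of cartilage (1.68, SE 0.44). The sum of 12 skeletal muscle genes was 70.1 to 83.4 CPM in the 4 libraries of 50 nt and 18.2 to 30.7 CPM in the 18 others. The part of these tissues in the 2 G protein genes was not tested.

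**Figure D3:**
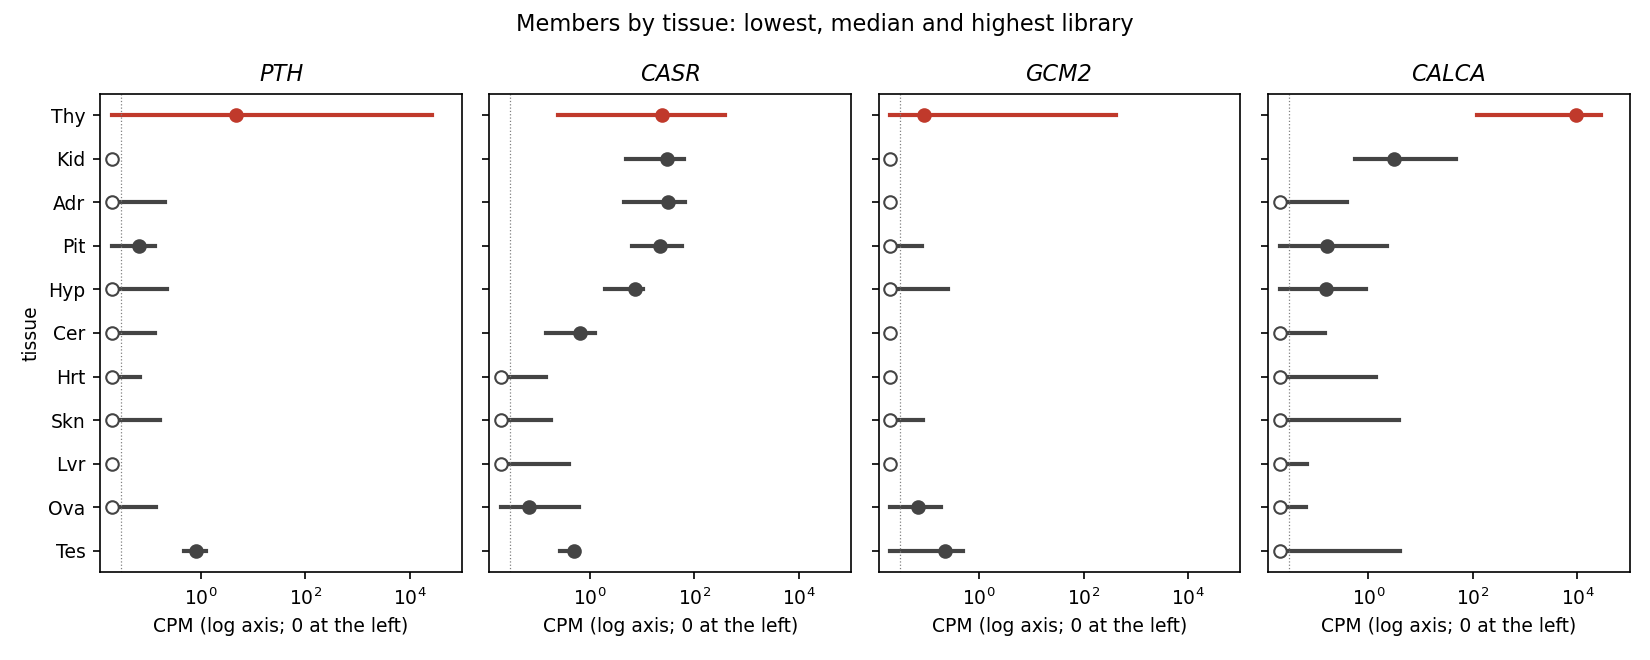
PTH, CASR, GCM2 and CALCA in 11 tissues, with CPM by library total on a log axis. Points are medians over libraries (open where the median is 0), lines run from the lowest to the highest library, and values left of the dotted line are 0. Thyroid, in red, has the widest range for all 4 genes, while CASR medians of kidney, adrenal gland and pituitary lie between 21.7 and 31.4 CPM, close to the thyroid median of 23.7 CPM.

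Outside thyroid, 215 libraries of 10 tissues hardly held PTH. Their PTH counts added up to 204, beside 1045190 in the thyroid libraries, and 172 of them had 0 counts. Testis was the exception in regularity, with 7 to 22 counts in each of its 12 libraries (0.480 to 1.26 CPM, median 0.812), above the limit of 3 counts in all. No library of the 9 other tissues had more than 3 counts of PTH, and kidney (Kid) and liver (Lvr) had 0 counts in all 24 libraries each. The testis range did not overlap that of any of these 9 tissues, but it lay inside the thyroid range. In GP-M-BvN of testis, PTH had a log2 fold change of -0.26 (SE 0.23, edgeR FDR 0.799).

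GCM2 added up to 86 counts in the 215 libraries, beside 13851 in thyroid, and reached at most 9 counts in testis and 4 counts elsewhere. Its median was highest in testis, with 0.225 CPM, followed by thyroid with 0.0864 CPM and ovary with 0.0684 CPM, and neighbouring ranges overlapped. It had 0 counts in every library of kidney, adrenal gland (Adr), cerebellum (Cer), heart (Hrt) and liver.

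CASR differed from PTH and GCM2 in that several tissues held it in every library. The median was 31.4 CPM in adrenal gland (range 4.47 to 66.0), 30.4 CPM in kidney (4.94 to 62.0), 23.7 CPM in thyroid (0.247 to 386), 21.7 CPM in pituitary (Pit; 6.41 to 57.4) and 7.17 CPM in hypothalamus (Hyp; 1.98 to 10.3). Ranges of neighbours in this order overlap. Cerebellum followed with 0.636 CPM (0.143 to 1.27), below every hypothalamus library, and testis with 0.492 CPM. In ovary, liver, skin (Skn) and heart the medians were at most 0.0676 CPM. Adrenal gland and kidney vary widely inside a group, and NF 13 had 4.47 CPM in the adrenal gland, where the other 5 NF had 27.8 to 66.0 CPM.

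CASR in pituitary lay higher in every female than in every male of the same status. The 6 BF had 35.4, 21.2, 43.2, 57.4, 29.9 and 35.9 CPM, and the 5 BM 20.9, 16.4, 13.2, 8.73 and 20.8 CPM. The 6 NF had 33.2, 26.9, 39.04, 25.3, 25.6 and 45.4 CPM, and the 6 NM 10.4, 19.3, 11.6, 19.4, 6.41 and 21.7 CPM. In both statuses the lowest female lay above the highest male, in breeders by as little as 21.2 against 20.9 CPM. Of 15755 genes with a count in pituitary, 1.14% had every BF above every BM and 0.774% every NF above every NM.

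The log2 fold change was 1.26 (SE 0.28, edgeR FDR 0.0195) in GP-B-FvM and 1.15 (SE 0.27, edgeR FDR 0.0217) in GP-N-FvM, so neither passed 0.01. Of all genes, edgeR called 0.43% and 0.752% in these comparisons. DESeq2 called CASR in both, with FDRs of 0.000804 and 0.00142, where it called 1.93% and 2.2% of all genes. Over all alternatives the FDR ran from 0.000804 to 0.0480 in GP-B-FvM and from 0.00142 to 0.0591 in GP-N-FvM. An exact permutation test of the difference in mean log2(CPM + 0.5), two-sided, gave p = 0.00433 in breeders and p = 0.00216 in non-breeders, not adjusted over genes. For non-breeders this is the smallest value the group sizes allow. A contrast of females against males over both statuses, added because of these values and therefore a description of them and no test, had a log2 fold change of 1.21 (SE 0.19, edgeR FDR 0.000492), and 3.86% of all genes passed 0.01 in it. Breeding status made no called difference in either sex, with 0.23 (SE 0.26, edgeR FDR 0.688) in GP-F-BvN and 0.11 (SE 0.28, edgeR FDR 1.00) in GP-M-BvN. The sex difference did not change detectably with status (interaction 0.12, SE 0.38, edgeR FDR 0.963). The part of the cell type makeup of the pituitary in this difference was not tested.

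**Figure D4:**
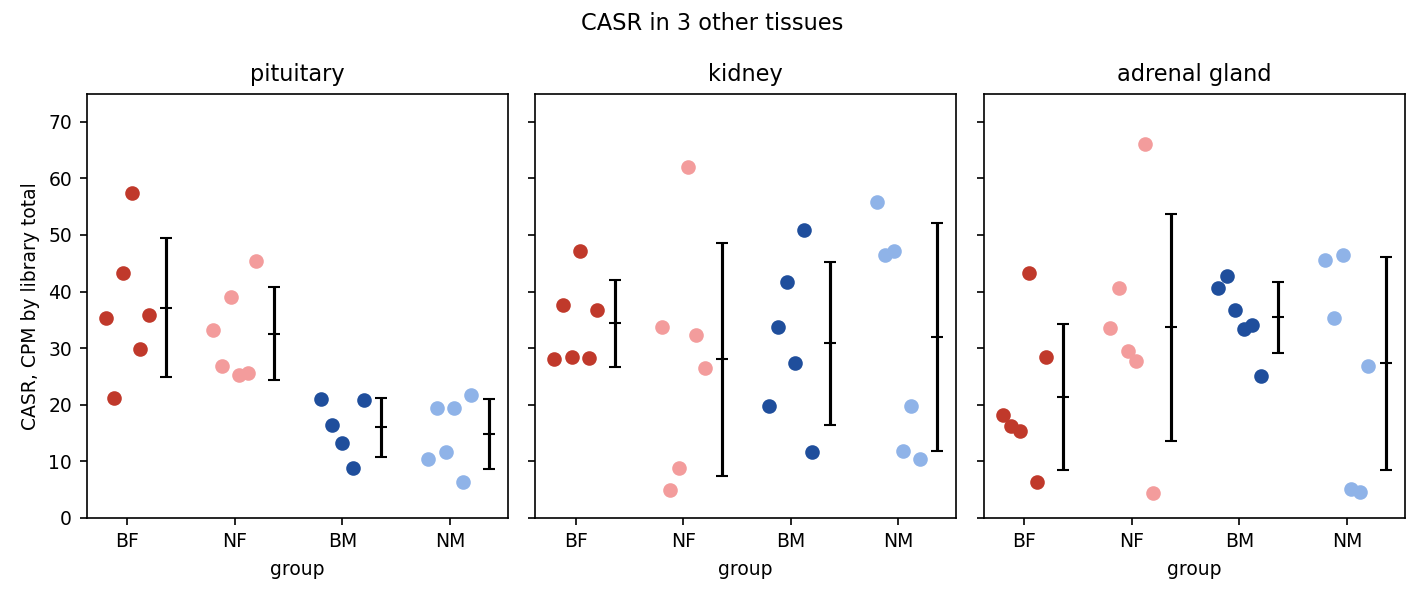
CASR in pituitary, kidney and adrenal gland by group, as CPM by library total on a linear axis from 0. Each point is 1 library and the bar beside the points is the mean with the SD. In pituitary the points of BF and NF, from 21.2 CPM up, lie above those of the male group of the same status, and in kidney and adrenal gland all groups overlap.

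In kidney, where CASR acts on calcium reabsorption, its level averaged 34.4 ± 7.66 CPM in BF, 28.03 ± 20.6 CPM in NF, 30.8 ± 14.4 CPM in BM and 31.9 ± 20.2 CPM in NM (SD, n = 6 each). All groups overlapped. Fold changes on the log2 scale were 0.28 (SE 0.49) in GP-F-BvN, -0.08 (SE 0.48) in GP-M-BvN, -0.14 (SE 0.48) in GP-N-FvM and 0.21 (SE 0.48) in GP-B-FvM. CASR and CALCA gave 8 tests in kidney, of which edgeR called 0, with 1 at an unadjusted p below 0.05, and DESeq2 likewise 0 and 1. Among all genes, both tools called 0% in each of the status comparisons. In the sex comparisons edgeR called 0.411% in GP-N-FvM and 0.388% in GP-B-FvM, and DESeq2 0.661% and 0.725%. In the tissues other than thyroid, kidney and pituitary, the members that passed the filter gave 13 tests with edgeR, of which 0 were called and 0 had an unadjusted p below 0.05. DESeq2 gave 84 values, some of which its own filter left without an FDR, with 0 called and 1 at an unadjusted p below 0.05. In all tissues and comparisons outside thyroid, kidney and the pituitary sex comparisons, edgeR called 0.275% of the tests over all genes and DESeq2 0.585%.

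Of the kidney genes around the receptor, 15 of 19 on the list of renal calcium and phosphate handling were tested and 0 called by edgeR in 4 comparisons, with 6 values at an unadjusted p below 0.05 (DESeq2 0 and 7), where 7.92% of the values of all genes (DESeq2 8.16%) lay below it. Of the 7 tested genes of calcium sensing and signalling 0 were called, with 0 at an unadjusted p below 0.05 (DESeq2 likewise), and of the 9 tested ligands and receptors of PTH, calcitonin and CGRP 0 were called, with 3 values at an unadjusted p below 0.05 (DESeq2 0 and 4). In the vitamin D and FGF23 axis, 9 of 10 genes were tested, and edgeR called GC in both sex comparisons and CYP27A1 in GP-N-FvM. DESeq2 called both genes in both sex comparisons, with CYP27A1 at -1.06 (SE 0.23, FDR 0.000773) in GP-B-FvM. Against these stand the 0.411% and 0.388% of all genes called by edgeR. CYP27A1, a vitamin D hydroxylase that also acts on cholesterol, had 54.6 to 117 CPM in NF kidneys (median 70.8) and 163 to 283 CPM in NM kidneys (median 258), a log2 fold change of -1.57 (SE 0.23, edgeR FDR 0.000351). Every NF lay below every NM, as for 0.506% of the 15602 genes with a count in kidney. GC, the vitamin D-binding protein, was at low counts, with 1 to 5 counts per library in NF and 5 to 34 in NM, a log2 fold change of -3.40 (SE 0.52, edgeR FDR 0.000619). In breeders GC had 3 to 6 counts in BF and 15 to 64 in BM, with -3.01 (SE 0.44, edgeR FDR 0.00053). In these comparisons both genes were lower in females. No edgeR call was lost when the kidneys of BF 01 and BF 02 were left out, which enter GP-N-FvM only through the shared fit. The DESeq2 call of CYP27A1 in GP-B-FvM was not refitted without them. In a fit of NF and NM alone, GC did not pass the filter on low counts and was not tested. CYP27A1 was tested in that fit but not called (edgeR FDR 0.0112, with 3.77e-09 to 0.0112 over all alternatives, DESeq2 included).

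CALCA outside thyroid was highest in kidney, with a median of 3.12 CPM (0.546 to 46.4). Every thyroid library, with at least 118 CPM, lay above every kidney library. Pituitary (median 0.164 CPM) and hypothalamus (0.154 CPM) followed, and the 7 other tissues had medians of 0. The 3 kidneys with most CALCA were BM 22 with 46.4 CPM, BF 01 with 35.4 CPM and BF 02 with 32.0 CPM, and the 21 others had at most 10.96 CPM.

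The kidneys of BF 01 and BF 02 also held genes of the thyroid. TG had 151.4 CPM in BF 01 and 151.0 CPM in BF 02, against at most 0.845 CPM in the 22 other kidneys. SST had 6.85 and 5.33 CPM, against at most 0.0868 CPM. PTH and GCM2 had 0 counts in both. The ratio of TG to CALCA was 4.27 in the kidney of BF 01 and 4.72 in that of BF 02, and 8.11 and 6.00 in the thyroids of these animals, where the 22 thyroids ranged from 1.45 to 1022. The kidney of BM 22 had 1 count of TG and 1 count of SST, which is 0.0809 CPM for either gene.

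Testis gave another such pair. TG had 33.0 CPM in each of the testes of NM 29 and NM 30, against 0.530 to 0.996 CPM in the 10 others, and CALCA had 4.03 and 2.86 CPM (73 and 50 counts), against at most 0.0498 CPM. SST had 0.828 and 1.37 CPM, against at most 0.122 CPM. The ratio of TG to CALCA was 8.18 and 11.6 in these testes, and 16.4 and 4.60 in the thyroids of the same animals. PTH, at 0.828 and 1.26 CPM in these testes, was present in the other 10 as well. Where the thyroid genes in the 4 libraries come from was not tested.

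**Figure D5:**
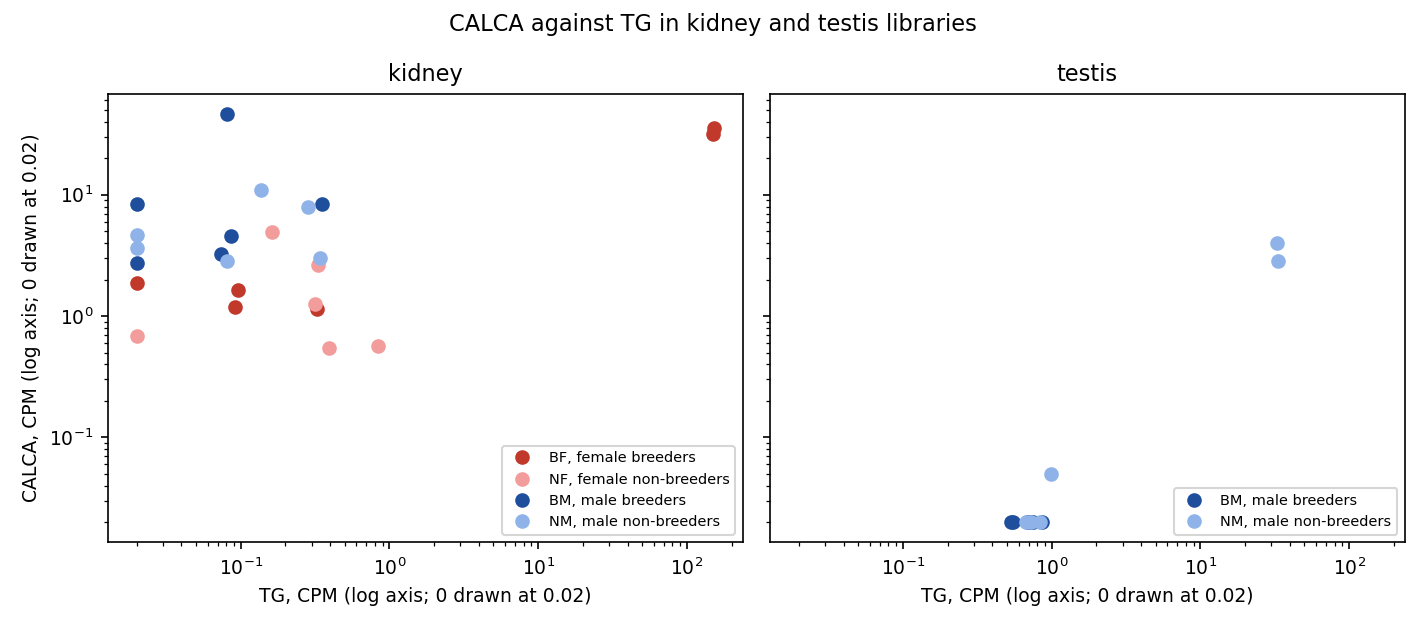
CALCA against TG in the 24 kidney and 12 testis libraries, as CPM by library total on log axes, with 0 drawn at 0.02. Each point is 1 library, coloured by group. The kidneys of BF 01 and BF 02 and the testes of NM 29 and NM 30 lie at the right, with high levels of both genes, and the kidney of BM 22 lies at the top left with 46.4 CPM of CALCA and 0.0809 CPM of TG.

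The GP-F-BvN and GP-B-FvM values of kidney CALCA turn on the kidneys of BF 01 and BF 02. In GP-F-BvN the log2 fold change was 2.71 (SE 0.96, edgeR FDR 0.415) with all libraries and -0.39 (edgeR FDR 0.814) without the kidneys of BF 01 and BF 02, with FDRs of 0.12 to 0.877 over all alternatives. In GP-B-FvM it was 0.06 (SE 0.86, edgeR FDR 0.994) with them and -3.05 (edgeR FDR 0.153) without, the lowest FDR among its alternatives. The remaining 4 BF kidneys had 1.15, 1.19, 1.89 and 1.63 CPM, and the 6 BM kidneys 3.25, 8.31, 4.60, 46.4, 2.74 and 8.45 CPM, so that without the pair every BF lay below every BM, as for 2.68% of the genes with a count in kidney. The difference does not pass the adjustment over all genes.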

How the data were processed

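RNA of 11 GP tissues was sequenced single-end from libraries that do not mark strand. The authors aligned reads to the genome cavPor3 with STAR 2.4.1d, discarded reads with several positions, and used HTSeq to count the rest. What the authors deposited are raw counts, not normalized, of 16009 genes in 238 libraries. Samples were assigned by column labels, and 0 columns had no sample.

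CPM used the total count of each library (3551108 to 22277626), and floors of 3 counts cover counting error only. The intervals of log2 fold changes were computed from the SE of the edgeR fit, which also includes the spread between libraries. For each tissue, the libraries of its groups entered a single edgeR fit (version 4.0.16, R 4.3.3) after TMM scaling and filterByExpr, whose limits were 10 for the count and 15 for the sum. Contrasts were tested by quasi-likelihood with robust estimates, Benjamini-Hochberg adjustment over all genes and a threshold of 0.01. DESeq2 1.42.0, the tool of the study, was an alternative, beside other scaling and filters and fits without single libraries. The code was tested on simulated data. Correlations used numpy 2.4.6 and log2(CPM + 0.5).

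The members and gene lists were chosen with earlier results of these data known. Named are the 4 members, list genes called in a comparison, marker lists as sums, and the 5 genes most like each member by Pearson r. The list genes given singly for thyroid, and those used beside CALCA in kidney and testis, were picked after their values were seen. Of the 4 symbols, 3 are in the RefSeq annotation of another build. The symbol CALCA is missing there, while CALCB is present. No sequences or coordinates are given. Some listed genes are counted in the lists but not reported singly here.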

Additional observations from a re-analysis of the deposited data

Results flagged for a closer look

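Each group of 4 to 10 libraries in which a member had at least 10 counts in some library was searched for a library far from the rest on the log2(CPM + 0.5) scale, by the gap to its neighbour relative to the range of the group. Of 51 such groups, 11 held one. Chance marks about 1 in 20 groups, but 5 of the 11 are thyroid values for which the genes were chosen, 3 of them in the single library of BF 05, so the count is no test. In thyroid, BF 05 was far above the other 4 BF with 18235 CPM of PTH (others 3.13 to 5.46), 145 CPM of CASR (others 7.14 to 14.4) and 417 CPM of GCM2 (others 0 to 0.139). NM 18 stood above the other 4 NM with 82.6 CPM of GCM2 (others 0 to 0.0613). BM 20 had 118 CPM of CALCA, far below the other 5 BM (3226 to 19819).

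Outside thyroid, NF 13 had 4.47 CPM of CASR in the adrenal gland (other NF 27.8 to 66.0). In hypothalamus, CASR was low in BF 05 with 2.69 CPM (other BF 6.88 to 9.18) and in NM 28 with 1.98 CPM (other NM 6.58 to 10.3). CASR had 0.631 CPM in the ovary of NF 06 (other NF at most 0.0767). CALCA had 1.39 CPM in the heart of NF 08, where the other 5 NF had 0 counts, and 3.81 CPM in the skin of NM 23 (other NM at most 0.196).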

How the results depend on the processing

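No paired analysis was possible because the groups compared within a tissue are different animals, and a number in the labels names an animal, not a pair. In thyroid, no alternative called any of the 4 genes in any comparison. Uncalled signs were unstable, and for the reversed values below the cause was not tested beyond the samples each setting leaves out. Without the libraries of 50 nt, log2 fold changes were -6.50 for GCM2 in GP-F-BvN, -2.32, -0.41 and -1.28 for PTH, CASR and GCM2 in GP-N-FvM, -9.42, -8.42 and -0.87 for PTH, GCM2 and CALCA in GP-B-FvM, and -7.14 for the GCM2 interaction. Without the males of 0.74 years they were 0.76 for CALCA in GP-M-BvN, -0.15 and -0.13 for PTH and CALCA in GP-B-FvM, -10.11 for the GCM2 interaction, and for kidney CASR 0.44 in GP-M-BvN and 0.34 in GP-N-FvM. With the library of NM 19 they were 0.19 for CALCA in GP-M-BvN and -0.17 for the GCM2 interaction. On the log2(CPM + 0.5) scale of the exact permutation test, the differences were -0.62 for GCM2 in GP-F-BvN, -1.24 and -0.61 for PTH and GCM2 in GP-B-FvM, 0.0932 for kidney CASR in GP-M-BvN and -0.63 for kidney CALCA in GP-B-FvM. Without the kidneys of BF 01 and BF 02, kidney CALCA had -0.39 in GP-F-BvN and -3.05 in GP-B-FvM.

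Leaving out 1 library at a time gave ranges across 0. In GP-F-BvN of thyroid they were -10.14 to 3.66 for PTH, -3.11 to 0.0783 for CASR, -10.08 to 3.499 for GCM2 and -0.87 to 0.0197 for CALCA. In GP-M-BvN they were -0.20 to 9.80 for PTH, -0.24 to 10.28 for GCM2 and -0.50 to 0.27 for CALCA. In GP-N-FvM they were -2.31 to 10.67 for PTH, -0.41 to 2.07 for CASR and -1.26 to 11.11 for GCM2. In GP-B-FvM they were -9.27 to 1.55 for PTH, -9.24 to 2.47 for GCM2 and -0.28 to 0.78 for CALCA, and for the interaction -11.08 to 2.72, -10.76 to 2.82 and -0.80 to 0.26 for the same genes. In kidney they were -0.28 to 0.15 and -0.52 to 0.0839 for CASR in GP-M-BvN and GP-N-FvM, and -0.0451 to 1.47 and -0.70 to 1.26 for CALCA in GP-M-BvN and GP-B-FvM. In pituitary CASR had -0.0330 to 0.27 in GP-M-BvN. Pituitary CASR in GP-N-FvM and GP-B-FvM kept its direction in all alternatives and was called by DESeq2 (1.14 and 1.26) and by no other tool or setting with adjustment over all genes. The exact permutation test, whose p is not adjusted, gave differences of 1.19 and 1.19. In the comparisons of the study outside thyroid, DESeq2 called 2 member tests and edgeR 0. The alternatives for pituitary CASR, kidney CALCA and the list genes were chosen after seeing the data. Thyroid medians under TMM scaling, without TG in the totals and with NM 19 were 4.16 to 5.10 CPM for PTH, 19.1 to 25.1 CPM for CASR, 0.0613 to 0.0918 CPM for GCM2 and 9192 to 9983 CPM for CALCA.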
